A study of Mus musculus with 19 samples.

Results

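The 10 integrin genes of epithelial matrix adhesion were followed in mouse hepatocytes: Itga1, Itga2, Itga3, Itga5, Itga6 and Itgav, which encode alpha chains, and Itgb1, Itgb4, Itgb6 and Itgb8, which encode beta chains. They were chosen by symbol, with earlier results of these data known, and are 10 of the 35274 genes in the count tables. All 10 had enough reads to be among the 16387 genes tested. Every animal carried OPN-CreERT2;Rosa26R-mT/mG, a tamoxifen-inducible Cre recombinase under an osteopontin promoter together with a reporter that Cre switches from red tdTomato to green fluorescence. GREEN hepatocytes came from chronically injured liver and are labelled DR-derived. RED hepatocytes, labelled native, came from chronically injured liver too. CTL hepatocytes, also native, came from healthy liver. DR is not spelled out in the labels, and the way the liver was injured, the age and the sex of the animals, and which samples came from one animal, are not stated. Each group had 5 biological samples. With 1 library used per sample, 2 per group were of experiment 1 (poly(A) selection) and 3 of experiment 2 (removal of ribosomal RNA). Fits of experiment 1 alone used all its libraries, those of GREEN 4 and 5, RED 1 to 5 and CTL 3 to 5. Fits of experiment 2 alone used GREEN 1 to 3, RED 2 to 4 and CTL 1, 2 and 5. These fits thus differ in samples as well as in library kit. GREEN 3 and GREEN 4 carry the same library code in the sample descriptions, so they may not be independent; leaving out either was among the alternatives.

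Integrins are receptors that anchor cells to the extracellular matrix, each made of 1 alpha and 1 beta chain. The beta-1 chain pairs with many alpha chains: alpha-1 and alpha-2 give collagen receptors, alpha-3 and alpha-6 laminin receptors, and alpha-5 the classical fibronectin receptor. The beta-4 chain pairs with alpha-6 and builds hemidesmosomes, the plaques that tie epithelial keratin filaments to laminin. The beta-6 and beta-8 chains pair with alpha-v and activate latent TGF-beta by binding its RGD motif. In liver, hepatocytes are known for the beta-1 integrins and lack a continuous basement membrane, whereas bile duct cells sit on one, and injured bile duct epithelium is known for alpha-v beta-6.

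Promoter sequences are shown for the genes of 3 chains that were higher in GREEN samples, Itgb8, Itgb6 and Itga3, beside Itgb1, the beta chain with the most RNA in every group. They come from the RefSeq table of GRCm38.p6, run 5′ to 3′ on the gene's own strand, and cover 250 bases before and 50 after the start of transcription. Itgb8 lies on the minus strand and the window is chr12:119238227-119238526, Itgb6 is on the minus strand at chr2:60722554-60722853, Itga3 is on the minus strand at chr11:95076665-95076964, and Itgb1 is on the plus strand at chr8:128685404-128685703. Capitals mark matches to a GC box (GGGCGG) or to a TEAD motif (GGAATG), read on either strand.
Itgb8: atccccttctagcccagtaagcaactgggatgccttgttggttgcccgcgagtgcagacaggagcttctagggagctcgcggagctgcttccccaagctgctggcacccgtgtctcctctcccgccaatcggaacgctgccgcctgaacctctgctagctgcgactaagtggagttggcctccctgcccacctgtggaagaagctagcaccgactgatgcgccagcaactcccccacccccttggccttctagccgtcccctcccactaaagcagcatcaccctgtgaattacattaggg
Itgb6: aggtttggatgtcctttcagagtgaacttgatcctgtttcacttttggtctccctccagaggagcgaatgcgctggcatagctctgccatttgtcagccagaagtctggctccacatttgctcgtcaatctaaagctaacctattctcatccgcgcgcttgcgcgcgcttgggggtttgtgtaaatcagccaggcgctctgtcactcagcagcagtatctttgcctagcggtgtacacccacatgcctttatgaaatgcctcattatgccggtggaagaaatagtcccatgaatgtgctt
Itga3: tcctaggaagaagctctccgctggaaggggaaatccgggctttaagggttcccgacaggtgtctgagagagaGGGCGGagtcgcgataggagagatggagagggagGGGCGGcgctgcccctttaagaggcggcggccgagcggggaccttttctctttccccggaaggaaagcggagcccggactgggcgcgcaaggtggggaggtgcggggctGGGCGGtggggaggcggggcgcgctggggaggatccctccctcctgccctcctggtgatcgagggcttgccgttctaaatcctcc
Itgb1: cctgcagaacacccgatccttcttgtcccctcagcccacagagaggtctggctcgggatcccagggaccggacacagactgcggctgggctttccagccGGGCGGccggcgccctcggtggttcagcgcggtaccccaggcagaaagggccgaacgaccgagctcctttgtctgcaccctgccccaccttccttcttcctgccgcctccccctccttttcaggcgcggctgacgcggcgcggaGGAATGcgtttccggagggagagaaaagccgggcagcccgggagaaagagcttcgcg
For Itgb6 and Itga3 the table holds 2 starts, and the first is shown. The Itgb8 and Itgb6 windows shown held no match to the 5 motifs searched, the Itga3 window held 3 GC boxes, and the Itgb1 window held 1 GC box and 1 TEAD motif. The second Itgb6 window, not shown, held 1 SOX motif and 3 CpG sites, and the second Itga3 window 1 AP-1 motif, 1 GC box and 5 CpG sites. The 5 motifs were AP-1 (TGANTCA), TEAD (GGAATG), the GC box (GGGCGG), the TATA box (TATAAA) and a SOX motif (AACAAT), searched on both strands. The Itgb1 window had 27 CpG sites and the Itga3 window 24, against 13 for Itgb8 and 12 for Itgb6. The median over all 32851 promoters of that table was 7. The table matched 8 of the 10 genes with 10 promoters. Itga6 and Itgb4 are named only. Of the 10 promoters, 6 held a GC box, which 35.7% of all promoters hold. An AP-1 motif stood in 1 (7.81% of all promoters), a TEAD motif in 1 (14.7%), a SOX motif in 1 (10.7%) and a TATA box in 0 (13.6%).

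Levels are given as CPM, that is, counts per unit of TMM-corrected library size, set to the usual common scale. Differences are log2 fold changes fitted with edgeR's quasi-likelihood F test with Benjamini-Hochberg adjustment over all genes tested, and "rose" or "fell" is used only below an adjusted p of 0.05. The libraries of experiment 1 held 22442607 to 34216824 estimated counts, those of experiment 2 held 38061859 to 44177627. Markers of other cells differed between the groups and were read beside the integrins. Summed over 12 biliary markers, GREEN samples had 582.1 to 8878 CPM, RED samples 101.7 to 440.1 CPM and CTL samples 47.51 to 315 CPM. Of the 12, Spp1, the osteopontin gene, had the highest mean in each group. It had 413 to 7420 CPM in GREEN, 38.4 to 380.3 in RED and 4.57 to 283.4 in CTL samples. The sums therefore lean on this 1 gene. Krt19 and Epcam, defining markers of bile duct cells, averaged 54.9 and 77.8 CPM in GREEN samples, against 0.488 and 0.445 CPM in RED samples and 0.0114 and 0.117 CPM in CTL samples. Summed over 10 hepatocyte markers, GREEN samples had 34720 to 78990 CPM, RED samples 68530 to 114900 CPM and CTL samples 99490 to 169800 CPM, so hepatocyte RNA was abundant in all of them. In such bulk RNA, more cells of a type and more RNA per cell cannot be told apart.

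GREEN and RED samples both came from chronically injured liver and differ in the labelled origin of the hepatocytes. In GREEN samples the genes of 3 beta chains, Itgb8, Itgb4 and Itgb6, rose. Their summed counts were 20.2 to 55.2 times those of RED samples after scaling to library size. Itga3 and Itga2 rose too, and Itgav rose by less. Itgb1, Itga1, Itga5 and Itga6 did not pass the test. So 6 of the 10 genes rose and 0 fell, where 12.9% of all genes tested passed (9.68% higher and 3.22% lower). Over all genes 1586 were higher and 528 lower; scaling by library totals gave 4289 higher and 40 lower, and DESeq2 2258 higher and 1564 lower. The median log2 fold change of the 10 genes was 1.65, beside -0.02 over all genes tested. Without GREEN 3, GREEN 4 and GREEN 5 together, the 3 samples with the highest biliary sums, 2 of the 10 genes rose, Itgb8 and Itga3, and in experiment 2 alone 1 rose, Itgb4.

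**Figure D1:**
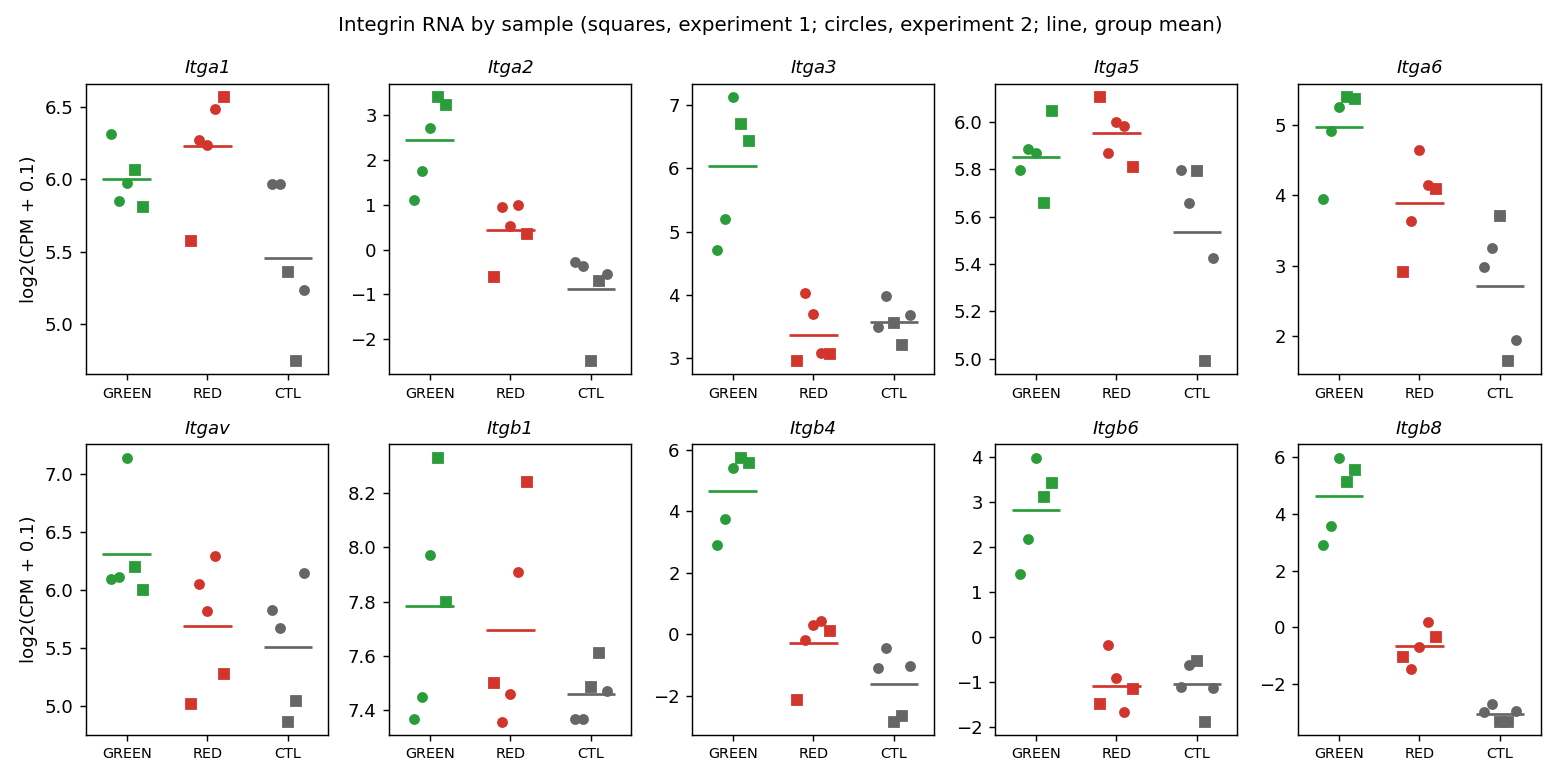
RNA of the 10 integrin genes by sample, as log2 of CPM plus 0.1 on the vertical axis, with each gene on its own scale, for 5 GREEN, 5 RED and 5 CTL samples; squares are experiment 1, circles experiment 2 and lines group means. For Itgb8 every GREEN sample (7.30 to 63.3 CPM) lies above every RED sample (0.260 to 1.05 CPM) and every CTL sample (0 to 0.0523 CPM), whereas for Itgb1 the groups overlap.

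Itgb8 (chromosome 12, 119158022 to 119238802, minus strand, GRCm38) encodes the beta-8 chain. It had 7.30, 11.7, 63.3, 35.0 and 46.4 CPM in GREEN samples 1 to 5, against 0.382, 0.260, 0.527, 1.05 and 0.700 CPM in RED samples 1 to 5. The lowest GREEN sample stood well above the highest RED sample, and within the GREEN group samples 3 to 5 were the high ones. The log2 fold change was 5.76 (standard error 0.55, adjusted p = 0.000137, higher in 5 of 5 samples). Counts summed over the groups were 8141 in GREEN and 103 in RED libraries, a ratio of 55.2 after scaling to library size (95% counting interval 45.4 to 67.7, counting error only). Without GREEN 3, 4 and 5 the log2 fold change was 3.83 (adjusted p = 0.0403), and within the experiments it was 6.36 in experiment 1 (adjusted p = 3.37e-05) and 5.47 in experiment 2 (adjusted p = 0.0536).

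Itgb4 (chromosome 11, 115974709 to 116008412, plus strand) encodes the beta-4 chain of the hemidesmosome. Its levels were 7.30, 13.4, 42.2, 53.4 and 47.2 CPM in GREEN samples 1 to 5, against 0.127, 0.779, 1.13, 1.24 and 0.973 CPM in RED samples 1 to 5. The groups did not overlap, and GREEN 1 and GREEN 2 were again the low GREEN samples. Itgb4 rose by 5.27 on the log2 scale (standard error 0.62, adjusted p = 0.00061, higher in 5 of 5 samples). It had 6.75 in experiment 1 alone and 4.32 in experiment 2 alone (adjusted p = 0.0424), and without GREEN 3, 4 and 5 the value was 3.02 and did not pass (adjusted p = 0.161). A long noncoding gene on the opposite strand, B230344G16Rik, shares 537 exonic bases with Itgb4, and no source used here says whether the counting used strand.

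Itgb6 (chromosome 2, 60598292 to 60722643, minus strand) encodes the beta-6 chain, known as an epithelial partner of alpha-v. GREEN samples 1 to 5 had 2.52, 4.43, 15.7, 8.57 and 10.6 CPM, against 0.255, 0.779, 0.431, 0.215 and 0.350 CPM in RED samples 1 to 5. Every GREEN sample was above every RED sample. Itgb6 rose by 4.35 on the log2 scale (standard error 0.50, adjusted p = 0.000345, higher in 5 of 5 samples). The values were 4.76 and 3.99 in experiments 1 and 2 alone (adjusted p = 0.069 in experiment 2), and 2.99 without GREEN 3, 4 and 5 (adjusted p = 0.0508).

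Itgb1 (chromosome 8, 128685654 to 128733200, plus strand), the common beta chain, overlapped between the groups. It had 165.0, 174.8, 250.9, 321.7 and 222.6 CPM in GREEN samples 1 to 5, against 181.0, 164.0, 176.1, 240.5 and 302.2 CPM in RED samples 1 to 5. GREEN 1 and GREEN 2 were as low as the low RED samples. The log2 fold change was 0.09 (standard error 0.18, adjusted p = 0.786).

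Among the alpha chains, Itga3 (chromosome 11, 95044474 to 95076801, minus strand) encodes the chain that pairs with beta-1 as a laminin receptor. GREEN samples 1 to 5 had 26.1, 36.7, 140.2, 104.5 and 86.4 CPM, against 7.64, 16.2, 12.8, 8.39 and 8.25 CPM in RED samples 1 to 5. The groups did not overlap. Itga3 rose by 2.91 on the log2 scale (standard error 0.39, adjusted p = 0.000739, higher in 5 of 5 samples). Without GREEN 3, 4 and 5 the value was 1.42 (adjusted p = 0.0403), and in experiment 2 alone it was 2.45 and did not pass (adjusted p = 0.119).

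Itga2 (chromosome 13, 114833081 to 114932100, minus strand), a collagen-binding chain, had 2.07, 3.31, 6.50, 10.6 and 9.27 CPM in GREEN samples 1 to 5, against 0.552, 1.84, 1.34, 1.91 and 1.17 CPM in RED samples 1 to 5. The groups did not overlap, but GREEN 1 lay close to the highest RED sample. Itga2 rose by 2.25 (standard error 0.52, adjusted p = 0.0208). The call ended when GREEN 3, GREEN 4, GREEN 5, RED 1 or RED 5 was left out (adjusted p 0.0543 to 0.0739), and the log2 fold change was 0.63 without GREEN 3, 4 and 5 together and 1.22 in experiment 2 alone (adjusted p = 0.345), against 4.04 in experiment 1 alone.

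Itgav (chromosome 2, 83724397 to 83806916, plus strand) encodes alpha-v, the partner of beta-6 and beta-8. It had 68.4, 69.0, 141.5, 73.5 and 64.0 CPM in GREEN samples 1 to 5, against 32.3, 66.1, 56.4, 78.6 and 38.5 CPM in RED samples 1 to 5. In CPM the groups overlapped and GREEN 3 was the one sample above all RED samples; in log2 CPM with the experiment effect removed, GREEN 3, 4 and 5 (6.78, 6.57 and 6.37) lay above the highest RED sample (5.93). Itgav rose by 0.67 (standard error 0.20, adjusted p = 0.0452), and this call ended in 20 of 27 alternatives, among them each single sample left out except GREEN 1 and GREEN 2. The log2 fold change was 0.03 without GREEN 3, 4 and 5.

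For the other alpha chains the test was not passed. Itga6, the laminin-binding partner of beta-1 and beta-4, had 15.4, 30.1, 38.1, 42.2 and 41.3 CPM in GREEN samples 1 to 5, against 7.43, 12.3, 25.1, 17.5 and 16.9 CPM in RED samples 1 to 5. In all, 4 GREEN samples were above every RED sample and GREEN 1 was within the RED range; the log2 fold change was 1.06 (standard error 0.41, adjusted p = 0.102). Itga6 passed without GREEN 1 (adjusted p = 0.0436) and by library totals (adjusted p = 0.0408). Itga1, a collagen-binding chain, had 55.9 to 79.5 CPM with a median of 62.9 in GREEN samples, against 47.5 to 94.8 CPM with a median of 77.2 in RED samples, a log2 fold change of -0.25 (standard error 0.21, adjusted p = 0.455). Itga5, the fibronectin receptor chain, had 50.4 to 66.0 CPM in GREEN samples and 55.9 to 68.7 CPM in RED samples, a log2 fold change of -0.10 (standard error 0.14, adjusted p = 0.675). Both Itga1 and Itga5 overlapped between the groups. Itga1 shares 685 exonic bases with Gm49395 on the same strand, which is counted separately, so part of its reads could be assigned to either.

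Across all 10 genes, 5 had every GREEN sample above every RED sample in CPM (Itgb8, Itgb4, Itgb6, Itga3 and Itga2), an order that 6.66% of all genes tested had (2.25% had the reverse order). GREEN 3, GREEN 4 and GREEN 5 had both the highest biliary sums (3352, 8878 and 4550 CPM, against 582.1 and 826.7 CPM in GREEN 1 and GREEN 2) and the highest levels of these 5 integrin genes in the group. Their order among themselves differed by gene, since GREEN 4 had the highest biliary sum, Itgb4 and Itga2, and GREEN 3 the highest Itgb8, Itgb6 and Itga3. Of the 12 biliary markers, 10 rose in GREEN over RED samples and 0 fell, with a median log2 fold change of 6.47. The biliary sum was not the only one to set GREEN 3, 4 and 5 apart. Their stellate sums (1514, 1959 and 2475 CPM) exceeded those of GREEN 1 and 2 (982.3 and 872.6 CPM). So did their macrophage sums (325.1, 456 and 326.8 against 119.1 and 167 CPM). Their hepatocyte sums were lower (39660, 34720 and 36260 against 55360 and 78990 CPM). The endothelial sum was lowest in GREEN 5 (324.7 CPM). The part of biliary RNA, or of RNA of these other cells, in the integrin differences was not tested.

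**Figure D2:**
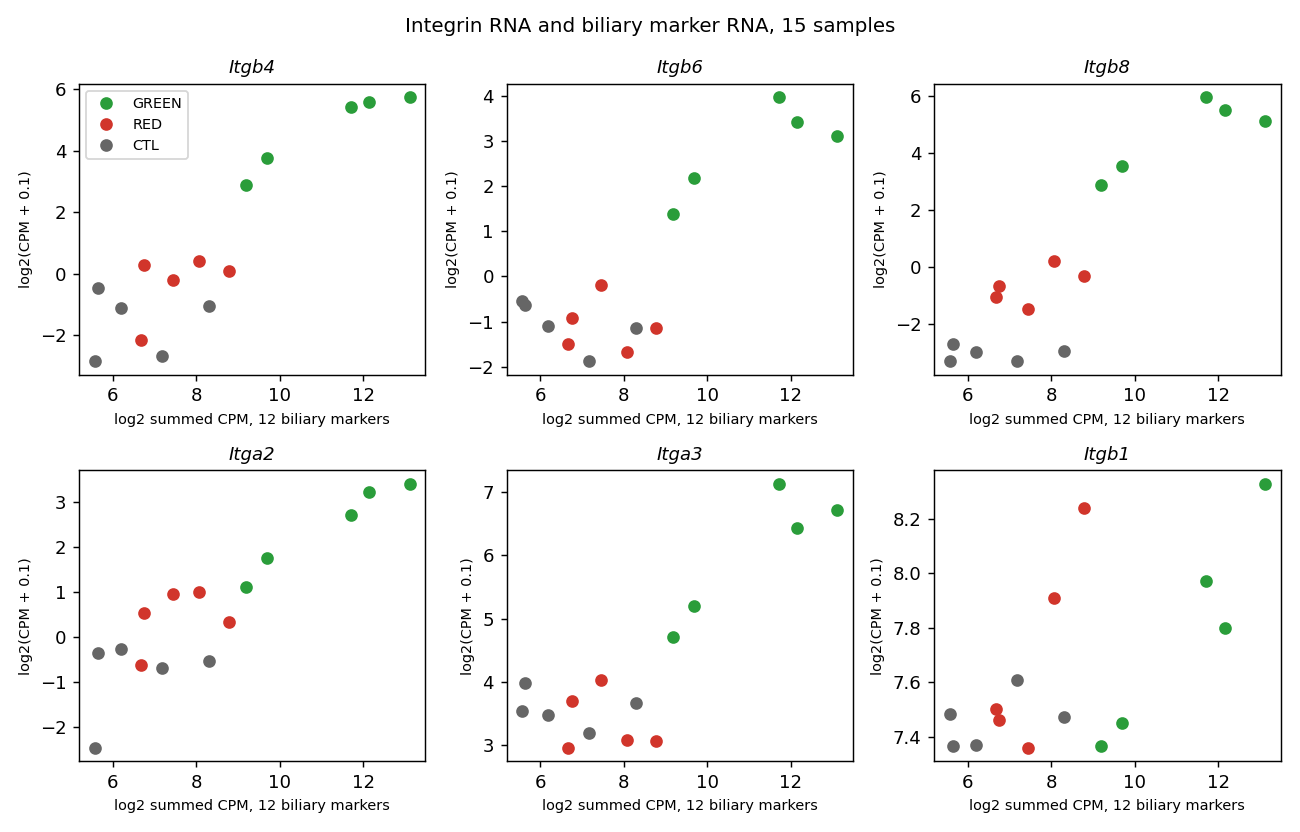
Level of 6 integrin genes (vertical axis, log2 of CPM plus 0.1) against the summed CPM of 12 biliary markers (horizontal axis, log2 scale) in 5 GREEN, 5 RED and 5 CTL samples. Spp1 had the highest mean of the 12 markers in each group, so the sums lean on it. Itgb4, Itgb6, Itgb8, Itga2 and Itga3 stand highest in the 3 GREEN samples with biliary sums of 3352 to 8878 CPM, and the GREEN samples with sums of 582.1 and 826.7 CPM still lie above all RED samples; for Itgb1 RED and GREEN samples mix.

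GREEN against CTL samples sets hepatocytes labelled as DR-derived in injured liver against native hepatocytes of healthy liver. Of the 10 genes, 7 rose and 0 fell, where 48.1% of all genes tested passed (29.5% higher and 18.6% lower). Over all genes 4839 were higher and 3051 lower, and 10077 higher and 467 lower by library totals. The 7 integrin genes were the 6 that rose in GREEN over RED samples and Itga6. Because GREEN samples are shared with the comparison before, this is no independent support for it. The median log2 fold change of the 10 genes was 2.45, beside 0.11 over all genes tested.

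CTL samples 1 to 5 had 0.0260, 0.0523, 0, 0 and 0.0295 CPM of Itgb8, a total of 4 counts over the group, so Itgb8 RNA was at the edge of detection in healthy hepatocytes. GREEN libraries had 8141 counts, 1270 times as many after scaling to library size (95% counting interval 497 to 4670). Itgb4 had 0.364, 0.627, 0.0394, 0.0570 and 0.384 CPM in CTL samples 1 to 5, below every GREEN sample, and the log2 fold change of GREEN over CTL was 6.71 (standard error 0.70, adjusted p = 3.6e-05). Itgb6 had 0.364, 0.549, 0.591, 0.171 and 0.354 CPM in CTL samples 1 to 5, again below every GREEN sample, and rose by 4.34 (standard error 0.50, adjusted p = 5.47e-05).

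Itga3 and Itga6, the genes of the laminin-binding alpha chains, both rose in GREEN over CTL samples. Itga3 averaged 78.8 ± 47.5 CPM in GREEN and 12.01 ± 2.44 CPM in CTL samples (SD, n = 5 each), a log2 fold change of 2.73 (standard error 0.39, edgeR adjusted p = 0.000178). Itga6 had 15.4 to 42.2 CPM in GREEN samples and 3.02 to 12.9 CPM in CTL samples, with no overlap, and rose by 2.17 (standard error 0.41, adjusted p = 0.00115). The collagen chain Itga2 had 2.07 to 10.6 CPM in GREEN and 0.0787 to 0.728 CPM in CTL samples, with no overlap, and rose by 3.63 (standard error 0.54, adjusted p = 0.000325). Itgav had 64.0 to 141.5 CPM in GREEN and 29.0 to 70.8 CPM in CTL samples, overlapped between the groups, and rose by 0.86 (standard error 0.20, adjusted p = 0.00391). Itga1 (log2 fold change 0.51, adjusted p = 0.061), Itgb1 (0.35, adjusted p = 0.132) and Itga5 (0.30, adjusted p = 0.103) did not pass; all 3 passed when libraries were scaled by their totals, with log2 fold changes of 1.21, 1.09 and 1.00 beside a median of 0.83 over all genes, and Itga1 passed in experiment 1 alone (1.01, adjusted p = 0.0219) and without GREEN 2 or without RED 5 (adjusted p 0.0341 at the lowest). In all, 6 genes had every GREEN sample above every CTL sample, an order that 21% of all genes tested had (9.59% had the reverse order). Without GREEN 3, 4 and 5 the calls of Itga6 (adjusted p = 0.124) and Itgav (adjusted p = 0.709) ended and the other 5 remained; the Itgav call also ended in experiment 2 alone (adjusted p = 0.16).

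RED against CTL samples compares native hepatocytes of chronically injured and of healthy liver. Of the 10 genes, 2 rose and 0 fell, Itgb8 and Itga1, where 16.2% of all genes tested passed (14.2% higher and 1.99% lower), so the share of called integrin genes was near that of all genes. Over all genes 2326 were higher and 326 lower, and 2633 higher and 911 lower by DESeq2. The median log2 fold change was 0.58, beside 0.05 over all genes tested. RED samples had 103 counts of Itgb8 over the group against 4 in CTL samples, a ratio of 23.1 after scaling (95% counting interval 8.74 to 86.3), and every RED sample (0.260 to 1.05 CPM) was above every CTL sample (0 to 0.0523 CPM). The adjusted p was 0.00441, and the call ended in experiment 2 alone (adjusted p = 0.0977) and under limma-voom (adjusted p = 0.12). This Itgb8 level in RED samples was low, 0.584 ± 0.309 CPM, against 32.7 ± 23.5 CPM in GREEN samples (SD, n = 5 each).

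Itga1 (chromosome 13, 114953096 to 115101964, minus strand) had 47.5, 77.2, 75.2, 89.6 and 94.8 CPM in RED samples 1 to 5, against 62.5, 62.5, 40.9, 26.7 and 37.5 CPM in CTL samples 1 to 5. In all, 4 RED samples were above every CTL sample and RED 1 lay within the CTL range. Itga1 rose by 0.76 (standard error 0.21, adjusted p = 0.024). The call ended when RED 4, RED 5, CTL 3, CTL 4 or CTL 5 was left out (adjusted p 0.0711 to 0.0854), and in experiment 2 alone the log2 fold change was 0.57 (adjusted p = 0.169).

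The remaining 8 genes did not pass between RED and CTL samples. Itga5 (chromosome 15, 103344286 to 103366763, minus strand) had 55.9 to 68.7 CPM in RED samples and 31.7 to 55.5 CPM in CTL samples, which just failed to overlap, with a log2 fold change of 0.40 (standard error 0.14, adjusted p = 0.0821; 0.65 and adjusted p = 0.0376 by library totals). It and Itgb8 were the 2 genes with every RED sample above every CTL sample, an order that 10.6% of all genes tested had (1.42% had the reverse order). Itga6 (chromosome 2, 71745616 to 71858416, plus strand) had 7.43 to 25.1 CPM in RED and 3.02 to 12.9 CPM in CTL samples, a log2 fold change of 1.11 (standard error 0.41, adjusted p = 0.0965), and passed by DESeq2 (adjusted p = 0.0488) and without RED 1 or without CTL 3 (adjusted p 0.0377 at the lowest). Itga2 had 1.38 (standard error 0.55, adjusted p = 0.116) and Itgb4 1.44 (standard error 0.73, adjusted p = 0.225), both with wide errors at levels below 2 CPM. In experiment 1 alone Itgb4 had 2.81 and passed (adjusted p = 0.0346). Itgb1, Itgav, Itga3 and Itgb6 had log2 fold changes of 0.26, 0.18, -0.18 and -0.01, with adjusted p between 0.412 and 0.993. Markers of other cells moved in the same comparison: all 10 endothelial, all 10 stellate and all 10 macrophage markers rose in RED over CTL samples, and the endothelial sum was 407.1 to 2015 CPM in RED and 44.58 to 144.7 CPM in CTL samples. Itga1 is also known from stellate and endothelial cells, and the part of such RNA in its difference was not tested.

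**Figure D3:**
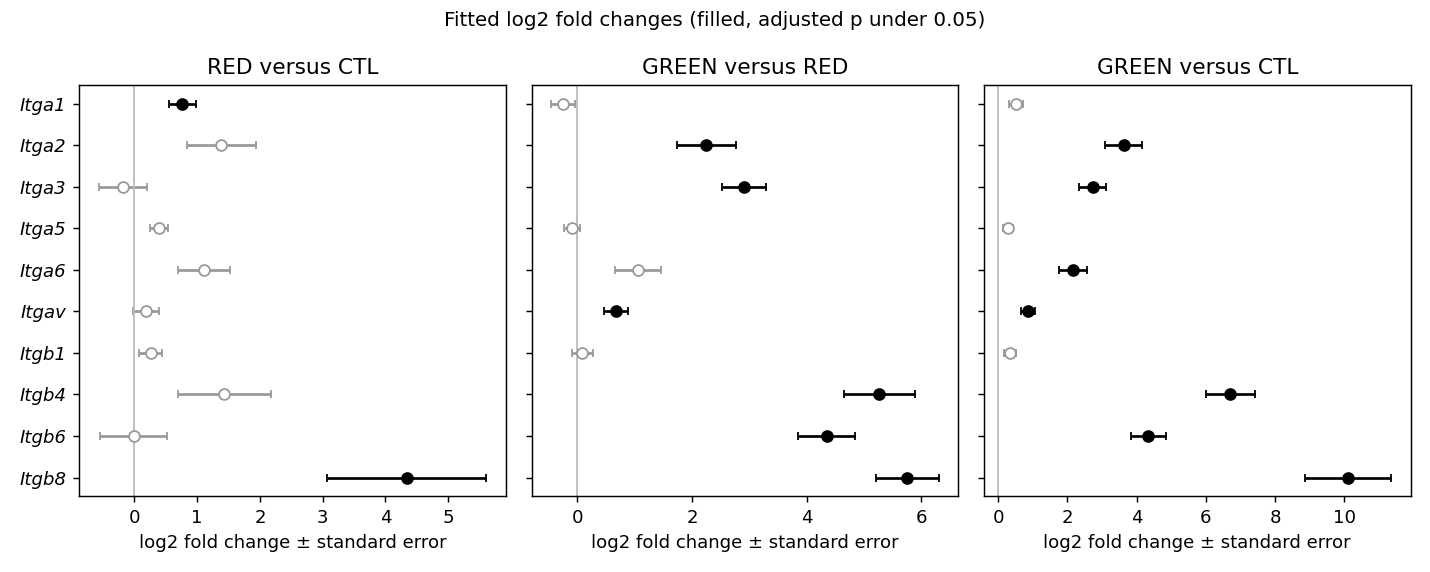
Fitted log2 fold changes of the 10 integrin genes with their standard errors on the horizontal axis, with 1 panel per comparison; filled points have an adjusted p under 0.05. Itgb8, Itgb4 and Itgb6 have 5.76, 5.27 and 4.35 in GREEN versus RED, whereas Itgb1 has 0.09; the fitted Itgb8 values against CTL rest on 4 CTL counts and depend on the prior count.

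Levels of different genes were compared per kilobase of the longest annotated transcript of each gene. Transcript forms were not told apart, so the orders and shares below depend on that choice of length. Itgb1 was the most abundant of the 10 in each group. It had 59.5 ± 16.6 CPM per kb in GREEN, 55.8 ± 15.2 in RED and 46.2 ± 3.25 in CTL samples (SD, n = 5 each). In GREEN samples the order of mean CPM per kb below it was Itga3 (16.2), Itga5 (13.1), Itgav (11.8), Itga6 (7.75), Itga1 (5.88), Itgb4 (5.27), Itgb8 (3.90), Itgb6 (1.74) and Itga2 (0.893). In RED samples it was Itga5 (14.0), Itgav (7.71), Itga1 (7.01), Itga6 (3.68), Itga3 (2.19), Itga2 (0.192), Itgb4 (0.137), Itgb6 (0.0845) and Itgb8 (0.0695). In CTL samples Itga5 (10.7), Itgav (6.81), Itga1 (4.197), Itga3 (2.47) and Itga6 (1.71) were followed by 4 genes below 0.1 CPM per kb. The ranges of Itga3 (5.37 to 28.9), Itga5 (11.4 to 14.96) and Itgav (9.07 to 20.1) overlapped in GREEN samples, so their order there lies within the spread. So did those of Itga6 (3.57 to 9.79), Itga1 (5.09 to 7.25), Itgb4 (1.18 to 8.60) and Itgb8 (0.869 to 7.53). In RED samples Itgav (4.58 to 11.1), Itga1 (4.33 to 8.64) and Itga6 (1.72 to 5.81) overlapped, and Itga6 also overlapped Itga3 (1.57 to 3.32). The means pool both kits, so neighbours in each order are a description only.

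The make-up of the 4 listed beta chains differed with these levels. Of the summed CPM per kb of the 4 beta chain genes, Itgb1 made up 85.8 ± 6.96% in GREEN samples (78.9% to 94.4%), 99.5 ± 0.212% in RED samples and 99.7 ± 0.15% in CTL samples (SD, n = 5 each). In GREEN samples Itgb4 made up 6.80 ± 3.24%, Itgb8 5.08 ± 3.07% and Itgb6 2.34 ± 1.10% (SD, n = 5), against at most 0.390%, 0.197% and 0.374% in any RED sample. Among the 6 alpha chain genes, Itga3 made up 26.9 ± 10.6% in GREEN, 6.27 ± 1.89% in RED and 9.66 ± 1.43% in CTL samples, and Itga5 25.0 ± 6.93% in GREEN, 41.1 ± 8.34% in RED and 41.4 ± 4.73% in CTL samples (SD, n = 5 each). These shares are of RNA, not of protein or of assembled receptors. They leave out integrin genes outside the 10, so they are not shares of all beta or alpha chain RNA. Itgb5, left out, averaged 28.6 CPM per kb in GREEN, 22.7 in RED and 21.8 in CTL samples, second to Itgb1 among these beta chains. Of the alpha chains left out, Itga8 averaged 12.1, 4.05 and 0.140 and Itga9 8.96, 8.79 and 0.702 CPM per kb in GREEN, RED and CTL samples.

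**Figure D4:**
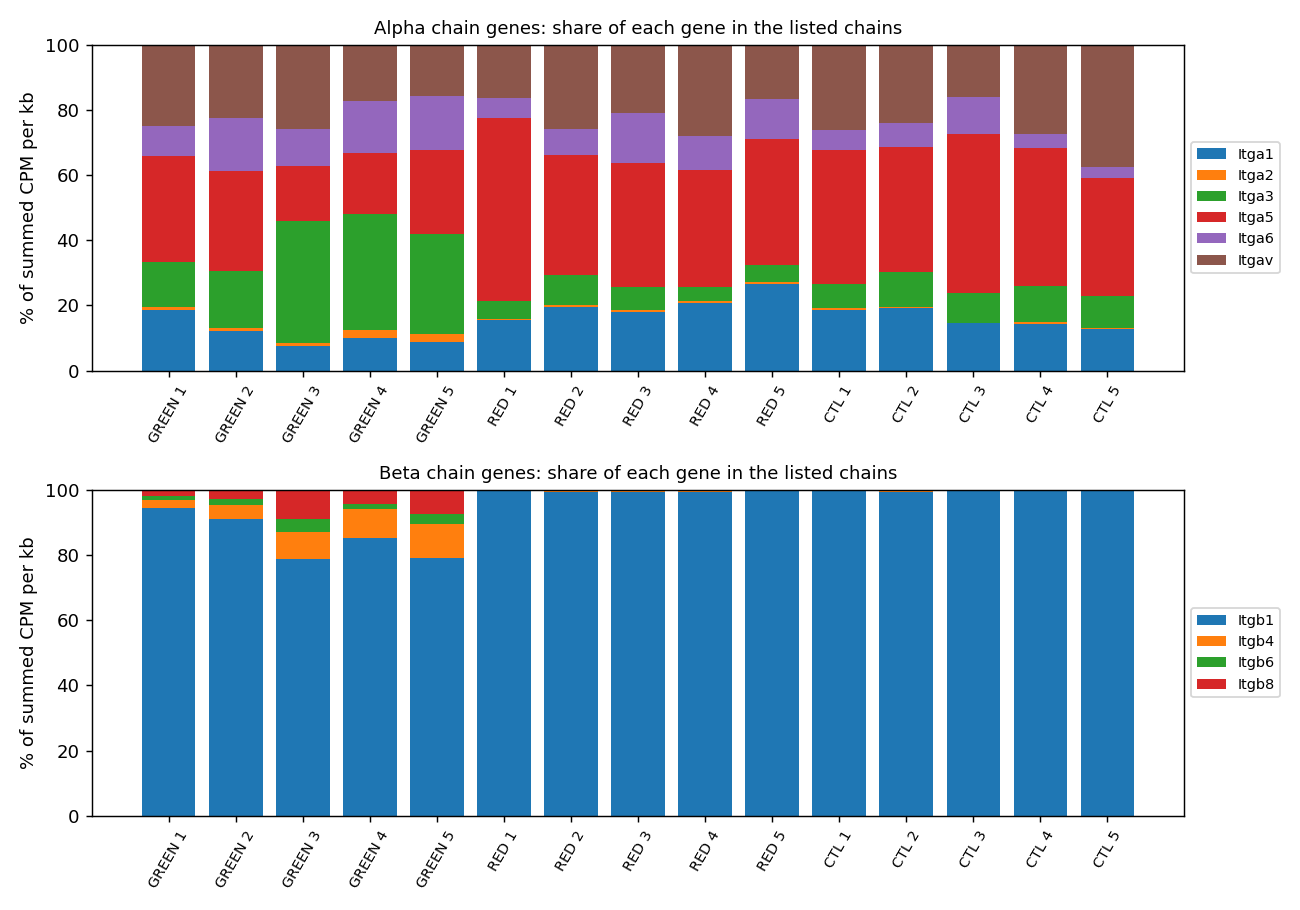
Share of each gene (vertical axis, percent of summed CPM per kb) among the 6 alpha chain genes, upper panel, and among the 4 beta chain genes, lower panel, in every GREEN, RED and CTL sample from left to right. Itgb1 fills 78.9% to 94.4% of the beta chain bars in GREEN samples and 99.3% or more in RED and CTL samples.

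A set of 4 samples had a library of each kit. The libraries of a sample differ in experiment and depth as well as in kit, so their ratios do not isolate the kit. Log2 ratios of experiment 2 over experiment 1 (CPM plus 0.1) lay between -0.07 and 0.17 for Itgb1 and between 0.24 and 0.45 for Itga3. They were larger for Itga2 (1.62 to 2.28), Itgav (0.90 to 1.40) and Itgb4 (0.82 to 1.63). Itgb6 ranged from -1.46 to 1.55 on 4 to 29.6 estimated counts, and Itgb8 from -0.20 to 0.58 on 1 to 44 counts. The Itga2 and Itgb4 ratios rest on experiment 1 libraries with 1 to 11 and 2 to 9 counts. Itga1 had ratios of 0.41 to 0.62, Itga5 of 0.13 to 0.48 and Itga6 of 0.24 to 0.60. For Itga1, Itga2, Itga3, Itga5, Itga6, Itgav and Itgb4 all 4 samples thus moved in the same direction. The fits hold experiment as a term.

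**Figure D5:**
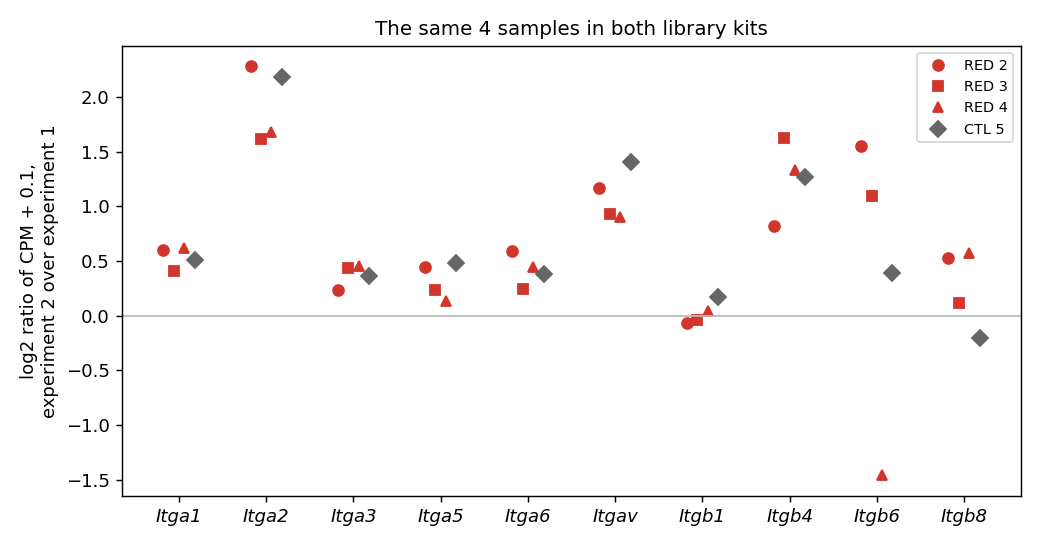
Log2 ratio of CPM plus 0.1 in the experiment 2 library over the experiment 1 library of the same sample (vertical axis) for the 10 integrin genes, in RED 2, RED 3, RED 4 and CTL 5. Itgb1 lies within -0.07 to 0.17, and Itga2 within 1.62 to 2.28.

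Members differed in how alike their patterns were over the 15 samples, on log2 CPM with the experiment effect removed. Pearson's r was highest for Itga3 with Itgb6 (0.98), Itgb4 with Itgb8 (0.97) and Itga2 with Itgb4 (0.95), and was 0.11 for Itga5 with Itgb1. The samples share group, depth and biliary RNA, so these values are descriptions. Outside the list, the tested genes most like Itgb8 were Mal, Lamc3 and Cpxm2 (r = 0.99 each), and those most like Itgb4 were Plp2, Chrnb1 and Radil (r = 0.99 each). Itgb6 was most like Tox3, Cited4 and Wnk2 (0.98 each), Itga3 most like Cited4 (0.99), and Itga2 most like Dzip3, Dtx3 and Cdh3 (0.98 each). Itgb1 was most like Cd151 (0.95), which encodes a tetraspanin known to bind laminin-binding integrins, Itgav most like Zfp664, Smad3 and Rbpms (0.97 each), Itga6 most like Kctd11 (0.97), Itga1 most like Rnf144a (0.95) and Itga5 most like Myl4 (0.89).

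Ligands of these integrins were read from lists of laminin chains, collagens and RGD-bearing or TGF-beta-related proteins. Of 11 laminin chains, 5 rose and 0 fell in GREEN over RED samples (median log2 fold change 1.48). Beside this and the list counts that follow, 9.68% of all genes tested were higher and 3.22% lower in GREEN over RED samples. The shares were 14.2% and 1.99% in RED over CTL samples, and 29.5% and 18.6% in GREEN over CTL samples. Lamc3 rose by 6.88 (standard error 0.50), with 137.2 ± 95.2 CPM in GREEN and 1.05 ± 0.331 CPM in RED samples (SD, n = 5 each, edgeR adjusted p = 7.25e-05). Lama5 and Lamb2 rose by 3.00 and 2.43, and the Lamb2 call ended when GREEN 3, GREEN 4 or RED 1 was left out. Without GREEN 3, 4 and 5 only 1 laminin gene rose, Lamc3. In RED over CTL samples 8 of the 11 rose (median 3.38), led by Lamc3, Lama2, Lama4 and Lama1. Lamc3 had 1 count over the CTL group, and Lama2 had 11.4 ± 9.49 CPM in RED and 0.223 ± 0.118 CPM in CTL samples (SD, n = 5 each).

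Of 9 collagen genes, 7 rose and 0 fell in GREEN over RED samples (median 2.15). The basement membrane genes Col4a6, Col4a4 and Col4a3 rose by 4.59, 3.53 and 2.95, and Col1a1, which encodes a chain of fibrillar collagen and is also one of the stellate cell markers, by 2.59. Col4a6 had 19.4 ± 11.4 CPM in GREEN and 0.798 ± 0.408 CPM in RED samples (SD, n = 5 each). In RED over CTL samples 7 of 9 rose (median 2.66), with Col3a1, Col1a2 and Col1a1 at 4.91, 4.78 and 4.64. The stellate sum was 872.6 to 2475 CPM in GREEN, 331.7 to 1846 CPM in RED and 38.33 to 84.16 CPM in CTL samples. This sum itself holds Col1a1, Col1a2 and Col3a1, which averaged 229.9, 243.4 and 311.3 CPM in GREEN samples. It is therefore not independent of the collagen list, and the part of stellate cell RNA in the collagen counts was not tested. Without GREEN 3, 4 and 5, 0 collagen genes rose in GREEN over RED samples at an adjusted p under 0.05.

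Of 9 RGD ligands and latent TGF-beta genes, 4 rose in GREEN over RED samples (median 0.97). Thbs1, which encodes thrombospondin-1, an activator of latent TGF-beta, rose by 3.08, Tgfb3, a ligand whose latent form alpha-v beta-6 and alpha-v beta-8 bind, by 2.71, and the matrix protein gene Tnc by 1.97. Spp1, the osteopontin gene whose promoter drives the Cre and which is also on the biliary list, had 3.99 (standard error 1.07, adjusted p = 0.0461). The call of Spp1 ended in 16 of 27 alternatives, that of Tnc in 12 and that of Tgfb3 in 10, and each of the 3 ended when any one of GREEN 3, GREEN 4, GREEN 5, RED 1, RED 2 or RED 3 was left out. Tgfb3 had 21.5 ± 13.6 CPM in GREEN and 3.16 ± 2.73 CPM in RED samples (SD, n = 5 each). Fn1 and Vtn, the fibronectin and vitronectin genes, fell in GREEN over CTL samples by 0.96 and 1.01 on the log2 scale (adjusted p = 0.0225 and 0.0389). Of the 10 hepatocyte markers, 7 fell and 0 rose in the same comparison, with a median log2 fold change of -1.41. The part of hepatocyte RNA in the Fn1 and Vtn differences was not tested. In RED over CTL samples 5 of the 9 rose, led by Thbs1 (5.04), Fbn1 (4.86), Tnc (4.52) and Tgfb1 (3.10).

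Inside the cell, integrins are switched on by talins and kindlins and tied to actin by adapters. Of 22 such genes, 5 rose and 0 fell in GREEN over RED samples, with a median of 0.08. Fermt1, which encodes the epithelial kindlin, rose by 5.14 (standard error 0.62, edgeR adjusted p = 0.000661), with 24.0 ± 16.3 CPM in GREEN, 0.651 ± 0.463 CPM in RED and 0.758 ± 0.447 CPM in CTL samples (SD, n = 5 each). The kinase gene Src rose by 2.07, and the adapter genes Tns1 and Lims1 by 1.66 and 1.35. The Src call ended without GREEN 3, and the Lims1 call without any one of GREEN 3, GREEN 4, GREEN 5 or RED 1. Tln1 and Ilk, genes of a talin and of the integrin-linked kinase, had log2 fold changes of 0.03 and 0.08 and did not pass. In experiment 2 alone, and without GREEN 3, 4 and 5, 0 of the 22 rose. In RED over CTL samples 5 of the 22 rose and 1 fell (median 0.30), where 14.2% of all genes tested were higher and 1.99% lower. The largest change was that of Parvb (3.83), and the widely expressed kindlin gene Fermt2 fell by 0.46 (adjusted p = 0.0105).

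Of 6 hemidesmosome and tetraspanin genes, 0 passed in either direction between GREEN and RED samples by edgeR, where DESeq2 called 1 higher. Plec and Dst, which encode the plakins that link beta-4 to keratin filaments, had log2 fold changes of 0.07 and -0.53 (standard errors 0.17 and 0.20), and Plec averaged 249.8 ± 156.0 CPM in GREEN and 243.8 ± 159.8 CPM in RED samples (SD, n = 5 each). Cd9, a tetraspanin gene, had 0.93 (adjusted p = 0.0505) in that comparison and rose by 1.47 in GREEN over CTL samples. Col17a1, the collagen of the hemidesmosome, rose by 2.74 in RED over CTL samples (not without RED 4 or without RED 5) but averaged only 1.68 ± 1.502 CPM in RED and 0.233 ± 0.148 CPM in CTL samples (SD, n = 5 each). Every list was read under the same fit as the 10 integrin genes.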

How the data were processed

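The authors deposited estimated counts per gene, which are not whole and not normalized; kallisto 0.43.1 and GRCm38 are named in the submitters' processing notes, and per the labels libraries were made from 150 ng of total RNA, with TruSeq Stranded mRNA in experiment 1 and KAPA HyperPrep RiboErase in experiment 2. No source used here names the annotation release or the strand setting. Estimated counts were rounded, and 1 library per sample was used (that of experiment 2 where a sample had both; 19 libraries in all). The 15 libraries were fitted with group and experiment as terms in edgeR 4.0.16 (R 4.3.3; TMM, filterByExpr, quasi-likelihood F test, Benjamini-Hochberg over 16387 genes, threshold 0.05), tested on simulated data. Symbols and positions came from a GENCODE annotation of GRCm38, which matched 34924 of 35274 identifiers (99%). Standard errors came from the fit's information matrix; the prior count for log2 CPM was 2. Kallisto divides reads among near-identical sequences.

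The members, gene lists and marker lists were chosen with earlier results of these data known. All 10 members are named. Pathway genes were drawn by rule from the called genes with the largest fold change, up to 4 per list and comparison. Not all of these are given, and many are left out for GREEN versus CTL. For likeness the rule took the 3 genes with the highest r, and for some members only the first is named. Cd9 and Itga8 (both in GREEN versus RED), Dst, Fermt2, Fn1, Ilk, Itgb5, Plec, Tln1 and Vtn lie outside this rule and were chosen after their values were seen. A named result that the rule would give is not reported here. Alternatives were library-total scaling, no low-count filter, DESeq2 1.42.0, limma-voom (limma 3.58.1), each experiment alone, the other library of samples with both, blocks by replicate number, 2 groups only, and samples left out. Each p-value measures spread over what the labels call biological replicates, which no label ties to separate animals. Numbers in library codes may pair RED and GREEN samples, and the main fit holds no such pairing. The correlation of deviations from group means in these pairs was 0.577, 0.398, 0.78 and 0.435, but -0.223 for GREEN 5 with RED 5. These values cannot settle whether the samples are paired. With a block by library code number, 947 genes were called in GREEN versus RED, against 2114 in the main fit.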

Additional observations from a re-analysis of the deposited data

Results flagged for a closer look

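Of 30 sets of 5 samples (10 genes in 3 groups), 1 held a sample far from the others. Itga2 in CTL 3 had a log2 CPM of -2.77 (0.0787 CPM, 2.5 estimated counts), where the other CTL samples had -0.79 to -0.51. Chance sets apart a sample in about 1 in 20 such groups. At this depth a few counts decide the value.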

How the results depend on the processing

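Depth limits the RED and CTL values of Itgb8, Itgb4, Itgb6 and Itga2, which rest on few counts per library. Over 26 or 27 alternatives per comparison, 704 of 790 values of the 10 genes kept their direction and their side of the threshold, 51 lost the call, 13 gained one and 22 changed sign, none of these called under the alternative. The causes were not tested.

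In GREEN versus RED, 6 integrin genes were higher, 4 to 7 with 1 sample left out, 1 in experiment 2 alone and 2 without GREEN 3, GREEN 4 and GREEN 5. All genes called were 2114, with 866 to 3515 leaving out 1 sample, 4329 by library totals, 3822 by DESeq2, 4141 with the experiment 1 library of samples with both, 5351 and 77 in experiments 1 and 2 alone, 1283 with only these groups, 268 when GREEN 4 and GREEN 5 were left out, and 52 when GREEN 3 was left out too. With a replicate block by library code number 947 genes passed, and the Itga2 and Itgav calls ended. In RED versus CTL, 2 integrin genes were higher, 1 to 3 leaving out 1 sample, 0 in experiment 2 alone, and 1 under limma-voom, the replicate block by title number, only these groups, and when GREEN 4 and GREEN 5, or GREEN 3 to 5, were left out. All genes called were 2652, with 2131 to 3267 leaving out 1 sample and 1207 in experiment 2 alone. In GREEN versus CTL, 7 to 8 integrin genes were higher leaving out 1 sample; all genes called were 7890, with 6710 to 8446 leaving out 1 sample, 3481 in experiment 2 alone, 4481 when GREEN 4 and GREEN 5 were left out and 2176 when GREEN 3 was left out too.

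Signs turned, without a call, for these log2 fold changes. By library totals, which move the median of all genes to 0.33 in RED versus CTL, 0.42 in GREEN versus RED and 0.83 in GREEN versus CTL, Itga1 had 0.18 and Itga5 0.35 in GREEN versus RED, and Itga3 0.10 and Itgb6 0.26 in RED versus CTL; Cd81 in GREEN versus CTL, called lower by 0.38, had 0.35. In experiment 1 alone Itga5 had 0.034 in GREEN versus RED and Itgb6 0.066 in RED versus CTL (0.16 in experiment 2). Itgb1 in GREEN versus RED had -0.066 with the replicate block by library code number, -0.02 without GREEN 4 and GREEN 5, -0.23 without GREEN 3 to 5, and -0.084 to 0.20 leaving out 1 sample; in GREEN versus CTL it had -0.029 without GREEN 3 to 5. Itgb6 in RED versus CTL had -0.40 to 0.10 leaving out 1 sample.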

Other observations

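Other integrin genes were read in the same fit, without a test of the difference from the 10 genes above. Of all genes tested, 14.2% were higher in RED over CTL, 9.68% in GREEN over RED and 29.5% in GREEN over CTL samples. Of 9 tested leukocyte and platelet integrin genes (10 listed, Itgad not tested), 7 rose and 0 fell in RED over CTL samples (median log2 fold change 2.22), and 0 passed in either direction in GREEN over RED samples by edgeR (median -0.05), where DESeq2 called 1 higher and 1 lower and limma-voom 1 higher. In GREEN over CTL samples 6 of the 9 rose (median 2.26). Itgax, which encodes the alpha-x chain of myeloid cells, had 1.60 ± 0.882 CPM in RED and 0.0476 ± 0.0563 CPM in CTL samples (SD, n = 5 each) and a log2 fold change of 4.74. Itgb3, Itgb2 and Itgal, genes of platelet and leukocyte chains, rose by 3.34, 3.27 and 3.05 in RED over CTL samples. Beside them, all 10 macrophage markers rose in RED over CTL samples, with sums of 104.3 to 1378 CPM in RED and 32.72 to 87.89 CPM in CTL samples, and 4 of the 10 fell in GREEN over RED samples. The part of leukocyte RNA in these integrin values was not tested.

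Of 6 remaining integrin genes, 3 rose in RED over CTL samples: Itga8 by 4.70 (standard error 0.56), Itga9 by 3.63 (standard error 0.53) and Itga11 by 3.02 (standard error 0.85). Itga8, known from stellate cells, had 70.2 ± 36.2 CPM in GREEN, 23.5 ± 17.1 CPM in RED and 0.816 ± 0.538 CPM in CTL samples (SD, n = 5 each). In GREEN over RED samples 2 rose, Itga11 by 2.10 and Itga10 by 1.09, and Itga8 had 1.56 (adjusted p = 0.0612). These calls ended in 9 and 11 of 27 alternatives. In GREEN over CTL samples 4 of the 6 rose (median 2.46). Itgb5, which encodes another partner of alpha-v, had 0.34 in GREEN over RED and 0.06 in RED over CTL samples and passed in neither.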
